A study of Homo sapiens with 36 samples.

Results

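MALAT1, NEAT1, NORAD, TUG1, KCNQ1OT1, GAS5, SNHG1 and SNHG5 are 8 abundant or well-studied noncoding RNA genes, and their PAR-CLIP clusters are described here along each RNA. The genes were chosen by name, with earlier results of these data known. A cluster was assigned to a gene when its midpoint lay on the gene's strand within the gene body of GENCODE 44 on GRCh38, and 1112 of 278185 clusters (0.4%) in 18 lists fell in these 8 of 62700 genes. None lay on the opposite strand. The lists came from 3 lines of HEK293 Flp-In T-REx, an embryonic kidney line with a single site for transgenes. One line carried FLAG-SCAF4 and one FLAG-SCAF8, both induced with doxycycline (100 ng/mL in the sample labels), and the parental line had no tagged protein. The labels give no doxycycline for the parental line, whereas the study's methods name it among the lines treated and give a higher dose. All cells received 4-thiouridine (4SU) at 100 μM overnight and at 500 μM for 2 h, and were irradiated with 2000 J/m2 at 365 nm. RNA was taken from a FLAG immunoprecipitation (IP) and from the extract before it (input), with 3 replicates of each in each line, which makes 6 groups. The FLAG IP of the parental line is called control IP. Each list combines the soluble and the chromatin library of a replicate, so 36 libraries gave 18 lists. The lists give crosslinked regions, not expression, and the identity of the cell line was not checked from them.

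SCAF4 and SCAF8 are related proteins that bind the C-terminal repeats of RNA polymerase II and also bind RNA. In PAR-CLIP, 4SU in newly made RNA is crosslinked to nearby protein and read as a T-to-C change, and a cluster is a stretch of reads with such changes. MALAT1 and NEAT1 are unspliced RNAs retained in the nucleus, at nuclear speckles and in paraspeckles, NORAD is a mostly cytoplasmic RNA that binds Pumilio proteins, and TUG1 is a spliced RNA. KCNQ1OT1 is an imprinted antisense RNA. GAS5, SNHG1 and SNHG5 are hosts of small nucleolar RNAs (snoRNAs), which are cut out of their introns and guide modification of other RNAs.

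The stretches below carry the comparisons that follow and were read from GRCh38 on the transcribed strand, 5′ to 3′. Capitals mark the motifs CGG and CGA, also CCAGC and CCAGG, also GCAGC and GCAGG, also CTCC and CACC, and the Pumilio element TGTANATA, searched on the transcribed strand alone, and neighbouring matches can overlap. The first pair lies in exons of TUG1, the first of the pair in SCAF4 and SCAF8 IP lists and in no other list and the second in all 6 IP lists of both proteins. NEAT1 is shown with a stretch of 4 SCAF4 and SCAF8 IP lists and no other list, and with a stretch of the 3 SCAF8 IP lists and no other list, the latter chosen after its values had been seen. For MALAT1, NORAD, SNHG1 and SNHG5 the stretch in the most SCAF4 and SCAF8 IP lists is shown, or its middle 200 nt.
TUG1, IP lists alone, chr22:30969347-30969475, plus strand: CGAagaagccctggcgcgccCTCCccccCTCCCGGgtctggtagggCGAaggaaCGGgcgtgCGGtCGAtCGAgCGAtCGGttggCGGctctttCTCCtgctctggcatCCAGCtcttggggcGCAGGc
TUG1, all 6 IP lists, chr22:30971556-30971726, plus strand: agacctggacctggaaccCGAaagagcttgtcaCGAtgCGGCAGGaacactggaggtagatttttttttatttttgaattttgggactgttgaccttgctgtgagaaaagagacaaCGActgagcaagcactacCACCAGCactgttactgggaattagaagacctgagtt
NEAT1, IP lists alone, chr11:65429367-65429424, plus strand: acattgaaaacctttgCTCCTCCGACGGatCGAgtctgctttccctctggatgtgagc
NEAT1, SCAF8 IP lists alone, chr11:65422947-65423123, plus strand: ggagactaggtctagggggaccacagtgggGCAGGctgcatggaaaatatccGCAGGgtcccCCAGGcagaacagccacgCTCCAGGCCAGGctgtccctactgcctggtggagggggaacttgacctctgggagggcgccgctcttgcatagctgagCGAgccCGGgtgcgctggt
MALAT1, chr11:65500624-65500823, plus strand: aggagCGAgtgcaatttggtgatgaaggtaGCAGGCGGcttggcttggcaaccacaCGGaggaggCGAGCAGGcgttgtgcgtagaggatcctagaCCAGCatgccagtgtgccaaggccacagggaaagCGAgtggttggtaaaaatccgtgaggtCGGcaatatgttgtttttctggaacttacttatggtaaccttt
NORAD, chr20:36048042-36048241, minus strand: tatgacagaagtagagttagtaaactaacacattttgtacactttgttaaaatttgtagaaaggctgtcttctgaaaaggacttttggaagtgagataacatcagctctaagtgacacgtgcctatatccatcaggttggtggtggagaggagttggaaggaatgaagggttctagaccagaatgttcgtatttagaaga
SNHG1, chr11:62852155-62852333, minus strand: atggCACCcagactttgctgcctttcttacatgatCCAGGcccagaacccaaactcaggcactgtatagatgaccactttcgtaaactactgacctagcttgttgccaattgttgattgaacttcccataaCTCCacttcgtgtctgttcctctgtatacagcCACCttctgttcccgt
SNHG5, chr6:85678188-85678370, minus strand: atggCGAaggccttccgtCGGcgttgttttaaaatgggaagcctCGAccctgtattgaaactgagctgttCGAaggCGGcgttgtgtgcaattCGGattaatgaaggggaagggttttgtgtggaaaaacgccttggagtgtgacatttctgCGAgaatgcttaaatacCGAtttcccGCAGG

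Lists of the SCAF4 and SCAF8 IP held 18287 to 54404 clusters, those of the control IP 1621 to 9638 and the 9 inputs 4567 to 12493. How deeply each library was read is unknown, and list length is the nearest measure of it. Replicate 1 was read to 100 nt and replicates 2 and 3 to 75 nt, so that the value without replicate 1 is the value within 1 read length. The order of the control IP lists by their number of clusters, with replicate 1 longest and replicate 3 shortest, moves with several of the values below, and its part in them was not tested. In bulk lysates, fewer cells with an RNA and less of that RNA per cell cannot be told apart.

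MALAT1 (chr11:65497640-65508073, plus strand, 10434 nt) was covered over most of its length between its common start and its small RNA in inputs and in SCAF4 and SCAF8 IP. Taken over the 18 lists, clusters lay between nt 1401 and nt 8460 of the gene body. GENCODE 44 gives 66 isoforms of MALAT1, of which 29 begin within 10 nt of nt 1406, and a small RNA gene of 57 nt lies at nt 8478 to 8534, where the 3′ end of MALAT1 is known to be cut to release a tRNA-like RNA. The covered part thus began at the common isoform start and ended before the small RNA, and neither the small RNA nor the 1900 nt beyond it held a cluster in any list. Between the common start and the small RNA, clusters covered 95.3, 98.8 and 94.2% in the 3 SCAF4 IP lists and 96.4, 87.4 and 94.5% in the 3 SCAF8 IP lists. The inputs covered 84.6 to 98.7% of it, so the IP and input ranges overlapped over nearly their whole width. Control IP covered 86.8% in replicate 1 but 58.0 and 54.1% in replicates 2 and 3, all below the SCAF4 and SCAF8 IP lists. Coverage here was near its ceiling, and 2573 nt were covered in all 18 lists.

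The number of clusters did not follow coverage on MALAT1. SCAF8 input replicate 1 held 2 clusters, with the longest at 6355 nt, and SCAF8 input replicate 3 held 17 over a smaller part of the RNA. In the SCAF4 IP lists there were 6, 7 and 9 clusters, in the SCAF8 IP lists 9, 17 and 13, and in the control IP lists 9, 16 and 14. A list of control IP therefore held as many MALAT1 clusters as a SCAF4 or SCAF8 IP list with many more clusters in all. No nucleotide of MALAT1 was in 4 or more IP lists of SCAF4 and SCAF8 while absent from the inputs and control IP.

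**Figure D1:**
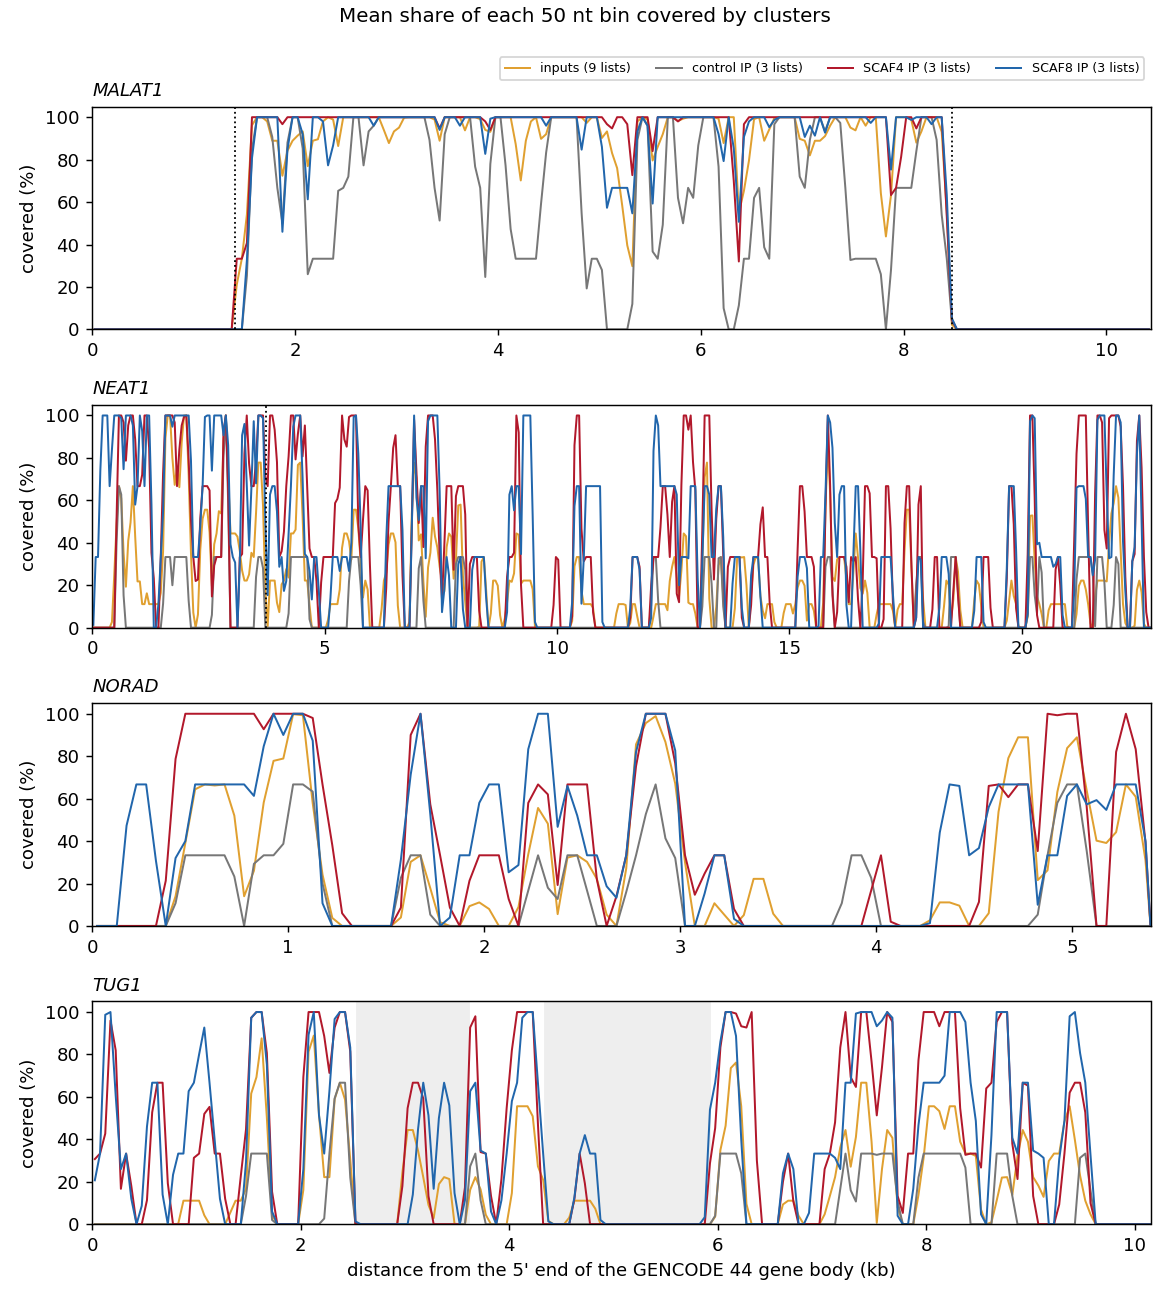
Mean share of each 50 nt bin covered by clusters (%, vertical axis) against the distance from the 5′ end of the gene body (kb), for 3 SCAF4 IP, 3 SCAF8 IP, 3 control IP and 9 input lists. Dotted lines mark the common isoform start and the small RNA of MALAT1 and the last end of the short NEAT1 isoforms, grey bands mark TUG1 introns; MALAT1 is covered between nt 1401 and 8460 alone, and the 5′ end of TUG1 carries SCAF4 and SCAF8 IP coverage.

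NEAT1 (chr11:65422774-65445540, plus strand, 22767 nt) makes short polyadenylated isoforms that end by nt 3740 and a long isoform that builds paraspeckles. Both parts carried clusters, and the 5′ part was covered more densely in each group of lists. SCAF4 IP covered 51.0, 63.8 and 55.1% of the 5′ part, and SCAF8 IP covered 79.2, 66.5 and 80.6%. The SCAF8 IP lists lay above the SCAF4 IP lists there, without overlap. Input coverage ran from 19.8 to 74.0% and control IP coverage from 2.94 to 31.9%, so that only the control IP lay wholly below both. In the part of the long isoform alone, SCAF4 IP covered 41.6, 38.2 and 22.4% and SCAF8 IP 47.5, 14.3 and 28.7%, against 2.15 to 52.6% in the inputs. Control IP covered 15.0% there in replicate 1 and none in replicates 2 and 3.

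The very 5′ end of NEAT1 differed between the SCAF4 and SCAF8 IP. Of the first 1000 nt, a window chosen after seeing the data, SCAF4 IP lists covered 45.7, 48.1 and 37.9%. SCAF8 IP lists covered 82.2, 80.1 and 75.6%. All 3 SCAF8 IP lists were higher, by a mean of 35.4 percentage points, but 3 lists against 3 cannot give a two-sided exact permutation p under 0.1. Inputs covered 0 to 48.1% of this window and control IP 0 to 15.9%, so that the SCAF4 IP lists overlapped the inputs. Across 9386 genes with a cluster in at least 3 lists, SCAF4 IP lay wholly above SCAF8 IP in this measure in 2.62% and wholly below in 0.724%, and NEAT1 alone of the 8 genes was among the latter. MALAT1, KCNQ1OT1 and GAS5 had no coverage of their window in any list and could not be in either set. Genes with an empty window stay in these percentages. Within the first 500 nt of NEAT1 the contrast was wider, with no coverage in the 3 SCAF4 IP lists and 66.8, 76.0 and 65.0% in the SCAF8 IP lists. Nucleotides 174 to 350, printed above as the SCAF8 IP stretch, were covered in the 3 SCAF8 IP lists and in none of the other 15 lists. Its GC content was 65.5%, against 44.1% over the gene body. All 3 SCAF8 IP clusters over this stretch had a score under the median of their list, and when only clusters scored at the median or higher were kept, SCAF4 IP was higher over the first 1000 nt, by 6.77 percentage points. The reverse contrast was small, as the nucleotides of NEAT1 in all 3 SCAF4 IP lists and no other list came to 6.

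Elsewhere on NEAT1 most covered positions were shared with inputs. Of the gene body, 13.7% was covered in SCAF4 or SCAF8 IP lists alone, 8.72% in input or control IP lists alone, and 19% in no list. Positions in 4 or more of these IP lists and no other list came to 111 nt, and the longest run of them (58 nt, printed above) held CTCC at 2 places and CGA at 2 places. Of all 58 nt windows of NEAT1, 18% held CTCC and 15.1% held CGA, whatever the number of matches in a window. Over the 111 nt the GC content was 51.4%, against 43.5% in positions covered by at least 6 of the 9 inputs.

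TUG1 (chr22:30969245-30979395, plus strand, 10151 nt, listed as protein-coding in GENCODE 44) carried SCAF4 and SCAF8 IP clusters at its 5′ end, where nearly all other lists held none. Of the first 1000 nt, SCAF4 IP covered 19.3, 45.7 and 25.1% and SCAF8 IP covered 36.4, 50.8 and 33.7%. The 3 control IP lists and 8 of the 9 inputs covered none of it, and SCAF8 input replicate 1 covered 15.1%. The IP lists thus lay above their own inputs without overlap (mean difference 32.6 percentage points, two-sided exact permutation test over 6 lists against 6, p = 0.00216, the smallest p of that design; adjusted p = 0.0710 over 9386 genes). The window of 1000 nt was chosen after these lists had been seen, so this p-value is no independent test of the 5′ end. Coverage also moves with list length, whose part here was not tested. Among these genes 3.05% were wholly higher in IP than in their own inputs, and TUG1 alone of the 8 was among them. MALAT1, KCNQ1OT1 and GAS5 had no coverage of this window in any list and could not be among them. The median difference over all genes was 0, and genes with an empty window stay in these percentages. Against control IP, 4.44% of genes were wholly higher, and they included TUG1, NEAT1 and SNHG5. The adjusted p for TUG1 ran from 0.0496 for the first 2000 nt to 0.929 when only clusters scored at the median or higher were kept, where the difference was 16.1 percentage points.

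Each position of the TUG1 stretch in IP lists alone (nt 103 to 231, printed above) was in 4 to 6 of these IP lists. It lies in exon 1, is 69.8% GC and holds CGG at 5 and CGA at 5 places, where 21.0% of all 129 nt windows of the gene body held CGG and 26.9% held CGA. Windows with any match were counted, not windows with as many matches as the stretch. Over the 323 nt of TUG1 in 4 or more IP lists and no other, GC content was 61.3% and CGG occurred 34.1 times per 1000 nt. In the 589 nt covered by at least 6 of the 9 inputs these values were 41.6% and 6.79 per 1000 nt. Thymidine, the base read as crosslinked, made up 23.2% of the first set and 30.1% of the second. Positions in 1 or more of the IP lists and no other list are a wider set, in which TUG1 was at 49.2% GC and 18.6 CGG per 1000 nt. By that count NEAT1 was at 47.6% and 3.21, against 43.5% and 3.98 in positions of at least 6 inputs. Counted in the same way, NORAD, SNHG1, GAS5 and SNHG5 did not all share the contrast. Their GC content was 43.8% in NORAD, 41.5% in SNHG1, 39.1% in GAS5 and 45.1% in SNHG5. In positions of at least 6 inputs it was 42.3, 43.1, 36.0 and 39.2%. CGG occurred 8.23, 2.80, 0.781 and 9.74 times per 1000 nt in the former and 10.2, 0, 0 and 13.5 times in the latter.

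Along the rest of TUG1 the exons carried most coverage. SCAF4 IP covered 46.9, 51.0 and 39.6% of exon sequence and SCAF8 IP 55.7, 35.9 and 43.7%, against 0.113 to 14.3% of the introns in these 6 lists. Inputs covered 2.34 to 42.2% of the exons and 0 to 15.2% of the introns. Exons thus exceeded introns in every list with coverage, and the inputs of the FLAG-SCAF8 line (42.2, 33.3 and 27.6% of exons) stood above replicates 2 and 3 of the other input groups (2.34 to 8.20%). The stretch shown second for TUG1 was in all 6 IP lists of SCAF4 and SCAF8, in 0 to 2 control IP lists and in 2 to 6 inputs.

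**Figure D2:**
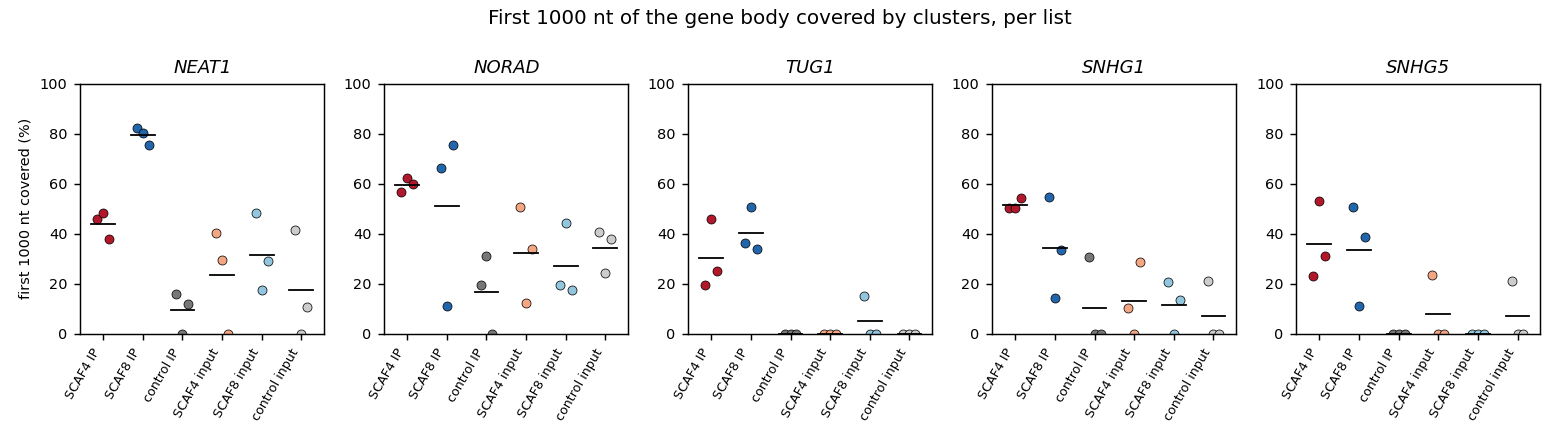
Share of the first 1000 nt of the gene body covered by clusters (%, vertical axis) in 6 groups of 3 lists, with a point per replicate and a line at the mean. TUG1 is at 0 in the 3 control IP lists and in 8 of 9 inputs, and NEAT1 reaches 75.6 to 82.2% in SCAF8 IP against 37.9 to 48.1% in SCAF4 IP.

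NORAD (chr20:36045618-36051018, minus strand, 5401 nt, 1 exon) was covered by 31.1, 51.8 and 36.3% in the SCAF4 IP lists and by 45.0, 17.2 and 54.6% in the SCAF8 IP lists. Inputs covered 14.3 to 47.9%, which overlaps the IP lists. In control IP the values were 23.0, 16.4 and 0%, and replicate 3 held no NORAD cluster. Only 15 nt were in 4 or more of these IP lists and no other list, so nearly all reproducible positions of NORAD were shared with inputs or control IP. The stretch printed above was in the 6 IP lists of both proteins, in 1 or 2 control IP lists and in 6 to 9 inputs. It holds none of the motifs searched. NORAD has 15 matches to the Pumilio element TGTANATA, and clusters touched 0 to 7 of them in a SCAF4 or SCAF8 IP list, 0 to 5 in an input and 0 or 1 in a control IP list. The printed stretch held no such element, and 4 of the 15 elements were touched in no list.

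KCNQ1OT1 (chr11:2597308-2700003, minus strand, 102696 nt) held 3 clusters in all, 1 each in SCAF4 IP replicates 2 and 3 and SCAF8 IP replicate 3. The SCAF4 IP clusters overlapped by 67 nt and together spanned chr11:2696463-2696562, nt 3442 to 3541 of the gene body. No input and no control IP list held a cluster of KCNQ1OT1. Its shares in those lists are set by the pseudocount alone, so that differences in its share depend on the pseudocount and are no fold.

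The 3 snoRNA hosts carried few clusters, and where these lay differed between the hosts. SNHG5 (chr6:85650491-85678932, minus strand, 28442 nt) was covered in its first exon by 37.8, 81.2 and 50.9% in SCAF4 IP and by 82.5, 17.9 and 61.7% in SCAF8 IP. Control IP covered none of this exon, and 7 of 9 inputs covered none, with 38.3% in SCAF4 input replicate 1 and 34.4% in control input replicate 1. Every IP list of SCAF4 and SCAF8 thus held this exon, and 2 of 9 inputs, both of replicate 1, did. In contrast, SNORD50A, a box C/D snoRNA of SNHG5, was touched in 4 of the 6 IP lists of both proteins, 1 of 3 control IP lists and 6 of 9 inputs. SNORD50B was touched in no list. The stretch of exon 1 printed above (nt 563 to 745) was in 5 of the 6 IP lists of these proteins and 1 input, and held CGA at 5 and CGG at 3 places. Of 183 nt windows of the gene body, 35.5% held CGA and 33.5% held CGG, whatever the number of matches in a window. Part of the SNHG5 body is shared with other genes annotated on the same strand, but all clusters lay within its first 5156 nt.

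SNHG1 (chr11:62851978-62855953, minus strand, 3976 nt) was covered in its last exon in nearly all lists. SCAF4 IP covered 96.7, 88.8 and 73.2% of that exon, SCAF8 IP 79.8, 37.5 and 79.3%, and the inputs 0 to 97.3%. IP and input ranges overlapped there. In its introns outside snoRNAs SCAF4 IP covered 24.5, 39.0 and 40.4% and SCAF8 IP 34.9, 6.42 and 13.0%, against 0 to 10.7% in the inputs. Control IP covered 18.5, 0 and 3.53% of them, so that its replicate 1 also lay above every input and above SCAF8 IP replicates 2 and 3. The 3 SCAF4 IP lists lay above all inputs and control IP lists, and the SCAF8 IP lists did not all do so. Of 9 small RNA genes in SNHG1, 8 were touched in at least 1 SCAF4 or SCAF8 IP list and 5 in an input. SNORD22 was touched in 6 of 6 SCAF4 and SCAF8 IP lists and 5 of 9 inputs, and SNORD25 in 6 of 6 and 1 of 9.

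GAS5 (chr1:173858559-173868882, minus strand, 10324 nt) had clusters between nt 1068 and 5005, where its snoRNAs lie. Its most often covered stretch, at and beyond exon 9 (nt 4177 to 4259), was in 5 of the 6 IP lists of both proteins, 1 control IP list and 5 or 6 inputs. No nucleotide of GAS5 was in 4 or more of these IP lists and no other list. Of 11 snoRNAs, 7 were touched in an IP list of SCAF4 or SCAF8 and 4 in an input. SNORD81 was touched in 4 of 6 SCAF4 and SCAF8 IP lists and 1 of 9 inputs, and SNORD75 in none and in 2 inputs.

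**Figure D3:**
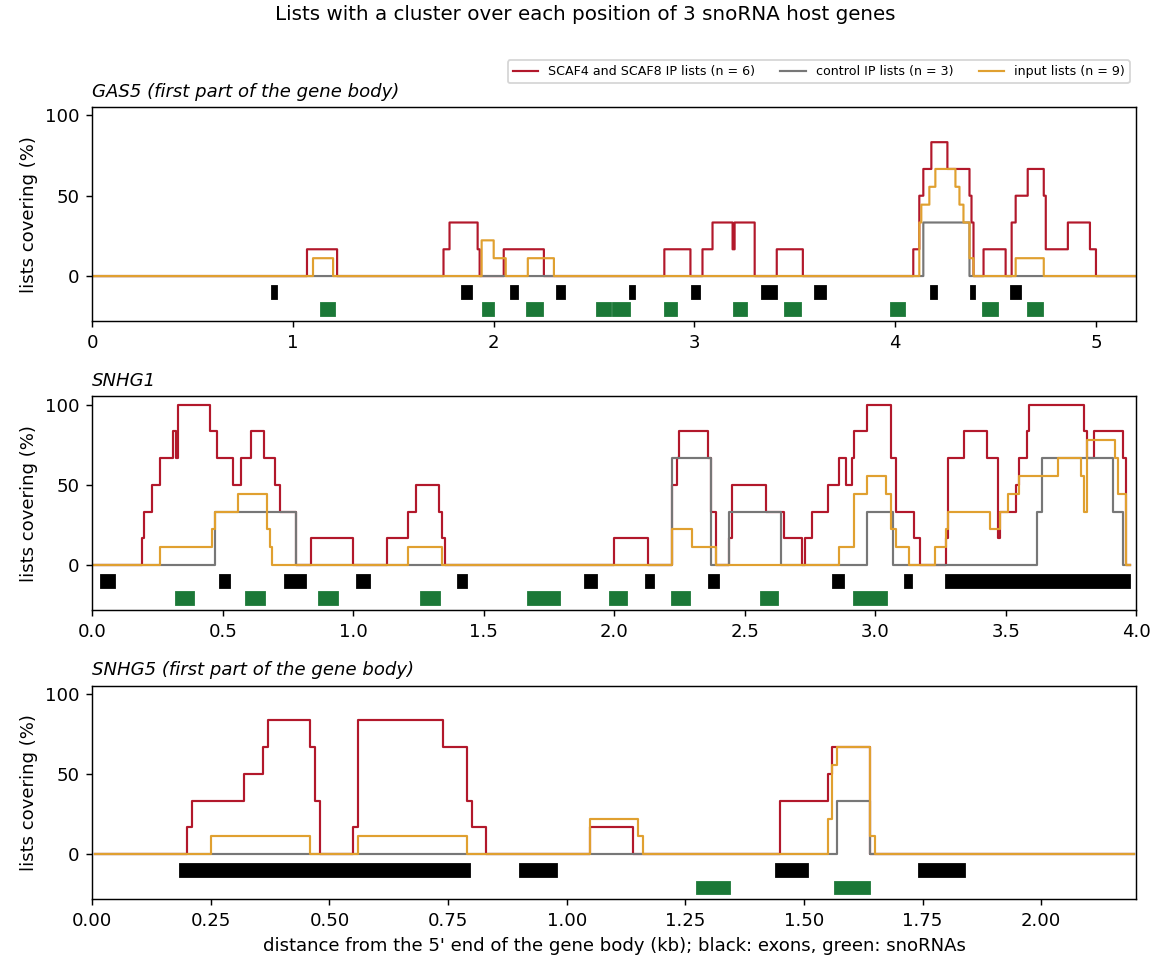
Share of lists with a cluster over each position (%, vertical axis) against the distance from the 5′ end of the gene body (kb) of GAS5, SNHG1 and SNHG5, for 6 SCAF4 and SCAF8 IP, 3 control IP and 9 input lists, with exons as black and snoRNAs as green boxes. The first exon of SNHG5 reaches 5 of 6 IP lists and 1 of 9 inputs, and SNORD50A reaches 6 of 9 inputs.

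Coverage of the whole gene body was compared for all 9386 genes at once. Of these, 41.4% were called higher in SCAF4 and SCAF8 IP than in their own inputs at an adjusted p under 0.05 and 0.0320% lower (two-sided exact permutation of 6 lists against 6, Benjamini-Hochberg adjustment). TUG1 (35.9% against 20.2%, adjusted p = 0.0314), SNHG1 (38.6% against 17.4%, adjusted p = 0.0426), GAS5 (5.77% against 1.92%, adjusted p = 0.0254) and SNHG5 (1.65% against 0.403%, adjusted p = 0.0314) were among those called higher by the exact test. That is 4 of the 8 genes, close to the share over all genes. Coverage rises with the number of clusters in a list, which was 18287 to 54404 in these IP lists and 4567 to 12493 in the inputs. The part of list length in these calls was not tested. As a share of the list's clusters, described below, the log2 differences of these genes were negative (TUG1 −1.02, SNHG1 −0.84, GAS5 −0.55, SNHG5 −0.62). Of these only TUG1 was called, and GAS5 and SNHG5 changed sign with another pseudocount. MALAT1 (64.0% against 62.6%, SD within groups 3.12), NEAT1 (37.7% against 23.4%, SD 14.5), NORAD (39.3% against 28.6%, SD 12.4) and KCNQ1OT1 were not called. NEAT1 input replicate 1 of the FLAG-SCAF4 line, at 53.7%, was above all 6 IP lists. Without replicate 1 the differences were 19.1 percentage points for TUG1, 23.3 for SNHG1, 4.76 for GAS5 and 1.54 for SNHG5, and no gene in the series was called from 4 lists against 4. When only clusters scored at the median or higher were kept, TUG1 (13.7, adjusted p = 0.0617, exact test) and SNHG5 (0.708, adjusted p = 0.389, exact test) were no longer called. With the replicate block no gene was called for coverage either (adjusted p = 0.112 for TUG1, SNHG1, GAS5 and SNHG5 in the exact paired test). The paired test has few possible outcomes, so a call there would need most genes to reach its smallest p. Against control IP, 28.8% of all genes were wholly higher in SCAF4 and SCAF8 IP, and MALAT1, NEAT1, TUG1, GAS5 and SNHG5 were among them.

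**Figure D4:**
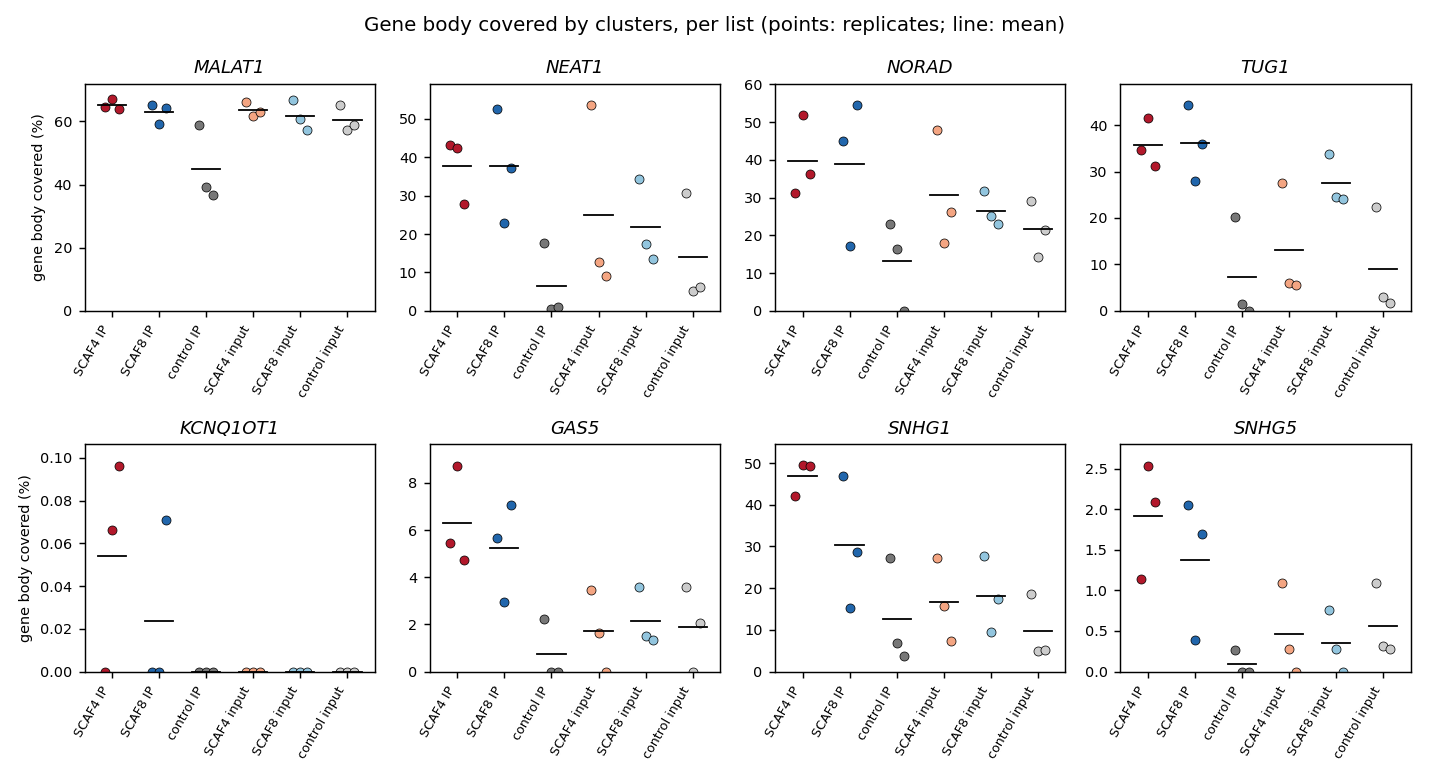
Share of the gene body covered by clusters (%, vertical axis, own scale for each gene) in 6 groups of 3 lists, with a point per replicate and a line at the mean. MALAT1 lies between 57.3 and 67.0% in all lists but control IP replicates 2 and 3, and TUG1 and GAS5 are higher in the SCAF4 and SCAF8 IP means than in their inputs.

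The share of a list's clusters taken by each RNA gave another order. This share is the number of clusters in a gene per 10000 clusters of the list, and it was compared as log2 with 0.5 cluster added. MALAT1 took 3.16, 1.29 and 2.65 per 10000 clusters of the SCAF4 IP lists and 3.57, 9.30 and 3.13 of the SCAF8 IP lists. It took 9.34, 69.1 and 86.4 per 10000 in control IP, all above the SCAF4 and SCAF8 IP lists, although control IP replicate 1 exceeded SCAF8 IP replicate 2 by little. Among inputs MALAT1 took 2.19 to 32.8 per 10000, with the lowest values in the 3 replicates 1.

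NEAT1 took 22.1, 7.54 and 10.6 clusters per 10000 in SCAF4 IP and 17.5, 13.7 and 8.92 in SCAF8 IP, against 41.8, 33.2 and 27.1 and 36.1, 25.1 and 20.0 in the inputs of the same lines. Apart from SCAF4 IP replicate 1, the IP lists lay below these inputs. NORAD took 2.21 to 4.37 per 10000 in the 6 IP lists and 5.79 to 16.7 in their inputs, and TUG1 took 3.49 to 8.95 and 8.35 to 14.2. The NORAD lists did not overlap.

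Tested with all genes, NEAT1 (log2 difference −1.26, adjusted p = 0.0376), NORAD (−1.65, adjusted p = 0.0278) and TUG1 (−1.02, adjusted p = 0.0278) had a lower share in SCAF4 and SCAF8 IP than in their own inputs by the exact permutation test. KCNQ1OT1 was called too, by its pseudocount. Over all 9386 genes 13.3% were called lower and 1.24% higher, and the median difference was −0.62. MALAT1 (−1.79, adjusted p = 0.107), SNHG1 (−0.84, adjusted p = 0.119), GAS5 (−0.55, adjusted p = 0.161) and SNHG5 (−0.62, adjusted p = 0.283) were not called by the exact test. The added 0.5 cluster weighs more in a short list and lowers the difference of every gene with few clusters. With a pseudocount in proportion to the list length, an alternative chosen after seeing the data, the median of all genes was 0.55, with 521 genes called higher and 433 lower. NEAT1 (−1.23), NORAD (−1.54) and TUG1 (−0.93) were still called lower, with adjusted p = 0.0426, 0.0254 and 0.0426 in the same exact test, and KCNQ1OT1 was not. With the replicate block, which pairs each IP with the input of its own extract, none of these genes was called (adjusted p = 0.139 for NEAT1, NORAD and TUG1 in the exact paired test), nor was any other gene. Measured as covered nucleotides per nucleotides covered in the list, the adjusted p was 0.0674 for NEAT1 and 0.0756 for TUG1 in the exact test, so that both missed the threshold, as did TUG1 with clusters of median or higher score (adjusted p = 0.0856, exact test).

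A gene that gives 1 cluster in every list falls in share by the list length alone. RN7SK, the RNA polymerase III transcript that holds back the elongation factor P-TEFb, had 18 clusters in 18 lists and a log2 difference of −1.90, with coverage of 98.5% in IP, 98.9% in inputs and 99.2% in control IP. RN7SL1 and RN7SL2, the RNAs of the signal recognition particle, also had a difference of −1.90.

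**Figure D5:**
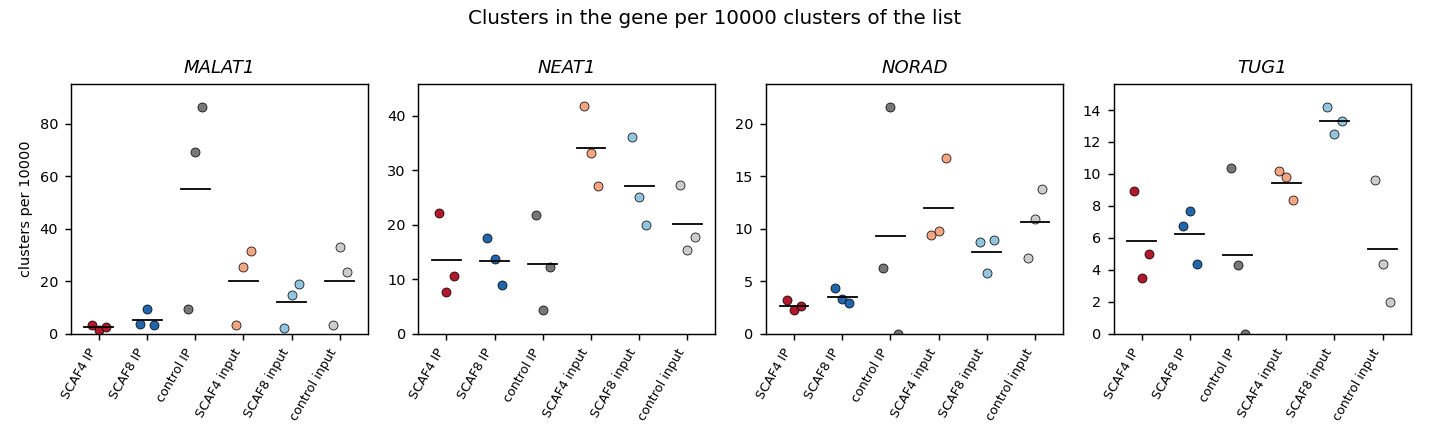
Clusters in MALAT1, NEAT1, NORAD and TUG1 per 10000 clusters of the list (vertical axis, own scale for each gene) in 6 groups of 3 lists, with a point per replicate and a line at the mean. NORAD takes 2.21 to 4.37 per 10000 in SCAF4 and SCAF8 IP and 5.79 to 16.7 in the inputs of these lines, and MALAT1 reaches 69.1 and 86.4 in control IP replicates 2 and 3.

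Against control IP no gene was called (smallest adjusted p = 0.0525, 4844 genes at an unadjusted p under 0.05 in the exact test), and 0.288% of genes had wholly higher and 26.2% wholly lower shares in SCAF4 and SCAF8 IP. MALAT1 (log2 difference −3.55) and SNHG1 (−1.55) were wholly lower, and remained negative at −3.43 and −1.11 with the pseudocount in proportion to list length. SNHG5 and KCNQ1OT1 were also wholly lower, but their differences turned positive in that setting, in which 1246 genes were wholly higher and 350 wholly lower. The differences of NEAT1 (−0.05) and TUG1 (−0.03) were small and turned to 0.23 and 1.26 in that setting, in which the median of all genes moved from −1.58 to 0.79. Between SCAF4 IP and SCAF8 IP, 8.48% of genes were wholly higher and 6.82% wholly lower, and none of the 8 was among them. The largest of the 8 differences was that of MALAT1 (−1.05, SD within groups 0.77). Within the parental line, 17.2% of genes had a wholly higher share in control IP than in control input and 0.767% a wholly lower one, and SNHG1 (0.76) was among the first. It held 5, 1 and 1 clusters in the control IP lists and 5, 1 and 2 in the control input lists. Its higher share thus goes with shorter control IP lists, not with more clusters. The single clusters of control IP replicates 2 and 3 also enter its difference of −1.55 from control IP. With the other pseudocount 79 genes were wholly higher and 220 wholly lower in control IP than in control input, and SNHG1 was at 0.61.

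Mean positions along the RNA did not separate IP from input for any of the 5 RNAs that could be tested. The position, from 0 at the 5′ end to 100 at the 3′ end, was averaged over the clusters of a gene in each list, for 1251 genes with a cluster in each of the 12 lists. Of these, 1.84% were called nearer the 3′ end in SCAF4 and SCAF8 IP and 6.87% nearer the 5′ end. NEAT1 was at 44.5 in IP and 39.2 in inputs (SD within groups 7.62), TUG1 at 47.9 and 51.4 (SD 4.90), and NORAD at 52.6 and 56.4 (SD 8.26). MALAT1 was at 50.2 and 49.7, and SNHG1 at 58.5 and 66.2. Each of these differences was smaller than the SD within groups.

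Filter steps adapted from those of the study were applied to see what they leave of these RNAs. They differ in that clusters were merged before filtering, that overlap was counted by input lists and that density was counted over merged input regions. Overlapping clusters of a line were merged, and the merged regions found in 2 or 3 replicates numbered 30 for SCAF4 and 25 for SCAF8 on NEAT1, 14 and 16 on TUG1, and 8 and 8 on NORAD. Once those that 2 or more of the 9 inputs also held were dropped, TUG1 kept 3 and 4 and NEAT1 2 and 2. The step on input density, which drops a gene when its body with 2 kb on each side reaches 1 merged input region in 10 kb, then removed all of them. NEAT1 stood at 15.7 merged input regions per 10 kb, NORAD and TUG1 at 10.6, SNHG1 at 7.52, GAS5 at 3.49 and SNHG5 at 1.23. The 8 genes together kept 1 SCAF4 consensus cluster, on KCNQ1OT1, and no SCAF8 consensus cluster. MALAT1, at 0.693 merged input regions per 10 kb, passed the density step but had no region left after the first. Its inputs held 97 clusters before merging, and counted one by one these would exceed the limit on density. Without the density step, 10 SCAF4 and 11 SCAF8 regions would stay, among them the TUG1 regions at chr22:30969249-30969491 for SCAF4 and chr22:30969264-30969485 for SCAF8 that hold the printed stretch.

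Other snoRNA hosts and long noncoding RNAs were taken from lists written with earlier results of these data known. Of 23 other snoRNA hosts tested, none had a higher and 7 a lower share in IP than in the inputs (median −0.99, against −0.62 for all genes), and 13 had higher coverage (median difference 5.75 percentage points, against 0.846). Over all genes 13.3% had a lower share and 41.4% higher coverage. SNHG16, with 253 clusters the richest of the list, was covered by 4.08% in IP and 1.78% in inputs (adjusted p = 0.0783, exact test). SNHG17 with 218 clusters rose from 9.60% in inputs to 33.1% in IP, and for EEF1A1, the translation elongation factor gene, share was lower (−1.79) while coverage was not called. Of 13 other long noncoding RNAs tested, 1 had a lower share, GABPB1-AS1 (−1.62), and 6 had higher coverage, both near these shares over all genes. JPX, MIRLET7BHG and FTX held the most clusters, 204, 203 and 196, and of these MIRLET7BHG, the host of let-7 miRNAs, had higher coverage in IP (8.49% against 0.847%). Of 6 RNAs made by other routes, such as RN7SK and the RNase P RNA RPPH1, 5 had a lower share, against 13.3% of all genes, and none was called for coverage.

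Over the 18 lists, the genes whose log2 share was most like that of each RNA were sought among 2678 genes with a cluster in at least 12 lists. For MALAT1 they were RNA5SP370 and XIST (Pearson r = 0.96 for both), for NEAT1 EIF2S3 (0.88) and RBBP7 (0.86), for NORAD TUBA1C (0.94) and EEF1A1 (0.93), and for TUG1 a gene named by its Ensembl ID alone (0.84) and HNRNPR (0.82). For SNHG1 they were DCAKD (0.93) and CGRRF1 (0.88), for GAS5 EEF1AKMT2 (0.87) and STX16-NPEPL1 (0.85), and for SNHG5 an Ensembl ID (0.84) and SPINT2 (0.83). All points share the list totals, so that these values describe the lists and carry no test.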

How the data were processed

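The files deposited by the authors hold 18 lists of PARalyzer clusters, with the chromosome, start, end, strand and an unnamed score of each cluster. Within each list, clusters were ranked by this score and it had no other use. The authors combined soluble and chromatin reads per replicate and had not yet applied filters on input and control IP. Bowtie2 2.2.9 and bcl2fastq 1.8 are named in the submitters' processing notes. Reads were not analysed here, so limits on T-to-C changes could not be altered.

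Coordinates fit GRCh38, and genes were those of GENCODE 44; snoRNAs were taken from RefSeq. Genes with a cluster in at least 3 of 18 lists were tested. Groups were compared by exact permutation of list labels (924 splits for 6 lists against 6, smallest p 0.00216; 84 for 6 against 3, smallest p 0.0119; 3 against 3 reaches 0.1), with Benjamini-Hochberg adjustment over all genes tested. Discrete p-values mean that 407 genes must reach the smallest p before 1 is called. Where calls were not possible, genes whose groups did not overlap were counted. Coverage of the first 1000 nt and the pseudocount in proportion to list length were chosen after seeing the data. The 8 genes, the gene lists and the rule for named genes (all 8, the 2 genes most alike over the lists, and the called and richest genes of the lists) were chosen with earlier results of these data known. An IP and the input with its number come from a shared extract. Deviations of same-numbered IP and input lists correlated at −0.0143 to 0.375 (median 0.157, 9 pairs), and those of different numbers at −0.263 to 0.173. The study calls the PAR-CLIP replicates biological, whereas the labels do not say that they were separate cultures. If they were not, p-values measure technical spread. The permutation test of share was run on simulated Poisson counts with no added spread between replicates. That run does not show its rate of false calls in these lists. Python 3.11.15, numpy 2.4.6, pandas 2.3.3 and matplotlib 3.10.9 were used.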

Additional observations from a re-analysis of the deposited data

How the results depend on the processing

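Leaving out a replicate left 0 genes called for share against own inputs, mean position and coverage against own inputs, since 4 lists against 4 leave too few splits. The replicate block (paired sign flips of each IP with its own input) also left 0 in each of the 3. Its few sign patterns put a call nearly out of reach. NEAT1, NORAD, TUG1 and KCNQ1OT1 therefore lost their calls for share (adjusted p = 0.139 in the exact paired test), and TUG1, SNHG1, GAS5 and SNHG5 theirs for coverage (adjusted p = 0.112), with the same sign. Genes called for share against own inputs numbered 5104 with a pseudocount of 1, 2235 by covered nucleotides, 328 with clusters scored at the median or higher and 5241 with no filter. Against control IP the called genes numbered 5600 with a pseudocount of 1, 2280 scaled by protein-coding clusters, 2277 by covered nucleotides, 1610 among genes in at least 6 lists and 6596 with no filter (0 without a replicate). The genes not overlapping there numbered 926 with a pseudocount of 0.1, 4658 with no filter and 1596 with the pseudocount in proportion to list length, and 2401 to 6722 without a replicate. SCAF4 IP against SCAF8 IP gave 956 at or above the median score, 2459 to 3645 without a replicate and 3524 with the replicate block. Control IP against control input gave 552 with a pseudocount of 1, 299 with the proportional one, 2235 to 5858 without a replicate and 6267 with the replicate block. Mean position gave 0 at or above the median score and 0 with median positions. Coverage at or above the median score gave 1000 called against inputs and 1176 not overlapping against control IP, where leaving out a replicate gave 2880 to 4864. For the first 1000 nt, genes not overlapping against inputs numbered 168 for 500 nt, 34 at or above the median score, 453 with the replicate block and 380 to 796 without a replicate. Against control IP they numbered 259 for 500 nt, 627 for 2000 nt, 48 at or above the median score and 488 to 1126 without a replicate. Between SCAF4 and SCAF8 IP they numbered 138 at or above the median score, 585 with the replicate block and 797 to 1231 without a replicate. The SCAF4 consensus clusters of the 8 genes numbered 0 when all 3 replicates were required, 10 without the density step and 0 to 3 without a replicate, and the SCAF8 ones 11 and 0 to 1.

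Signs turned for 46 of the values for single genes, some of which follow. With a pseudocount of 0.1 SNHG5 was at 0.16 against inputs and 0.36 against control IP. With the proportional pseudocount KCNQ1OT1 was at 0.40 against both, GAS5 at 0.04 against inputs, and SNHG5 at 0.11 against inputs and 1.16 against control IP, where NEAT1 was at 0.23, TUG1 at 1.26 and GAS5 at 1.44. The values of KCNQ1OT1 are set by the pseudocount. Mean position turned to 4.25 at or above the median score for SNHG1 and, without a replicate, ranged from −24.2 to 5.46 for SNHG1 (above 0 without replicate 2) and from −1.83 to 3.60 for MALAT1 (below 0 without replicate 2, and at −0.463 without replicate 3). For the first 1000 nt of NEAT1 at or above the median score, SCAF4 and SCAF8 IP were at −5.88 against control IP and SCAF4 IP at 6.77 against SCAF8 IP. The cause was not tested. Of the 46 values whose sign turned, 13 were labelled reversed, and the rest are within the counts that follow. Among values for single genes, 557 kept their call or moved by less than the spread. Another 37 lost and 6 gained a call, and 49 moved further. Read depth is unknown, so that a missing cluster in a short list does not show a missing contact.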

Other observations

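The genes of proteins known to act with these RNAs held 14 (METTL16) to 518 (SFPQ) clusters over the 18 lists. Of 18 gene entries for 17 such genes, 8 had a lower share of clusters in SCAF4 and SCAF8 IP than in their own inputs, none had a higher one (median −0.83, against −0.62 for all genes), and 13 had higher coverage (median difference 3.71 percentage points, against 0.846). The extra entry is of MATR3, whose entries were both among the 8 with a lower share (−1.28 and −1.34). Over all genes 13.3% had a lower share, 1.24% a higher one and 41.4% higher coverage. SFPQ, a paraspeckle protein, had 48.5% of the gene body covered in IP, 35.0% in inputs and 14.4% in control IP. Its coverage was not called against inputs (adjusted p = 0.0783, exact permutation test). Its log2 difference in share was −1.58 (adjusted p = 0.0278, exact permutation test). SON and SRRM2, proteins of nuclear speckles, had 374 and 364 clusters and were covered by 23.4% and 52.7% in IP against 13.6% and 34.2% in inputs (adjusted p = 0.0254 and 0.0130, exact permutation test). NONO, the partner of SFPQ, was covered by 7.89% in IP and 5.35% in inputs. UPF1, the helicase of nonsense-mediated decay, rose from 0.199% in inputs to 4.44% in IP (adjusted p = 0.0130 for coverage, exact permutation test), while its share did not pass (1.00, adjusted p = 0.158, exact permutation test).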
